A study of Homo sapiens with 6 samples.

Results

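H3K9me3 peaks were examined at 10 immediate-early and serum response genes, FOS, FOSB, JUN, EGR1, KLF6, MCL1, DUSP1, ID1, CCN1 and THBS1, out of 19970 protein-coding genes on chromosomes 1 to 22 and X. A peak was counted for a gene when it overlapped the gene body, or the 5000 bp on either side of it, by at least 1 bp. All 10 genes were found in the annotation, and 33 peaks fell in their windows. The genes were chosen by the positions and widths of their peaks in these same lists, as short peaks over genes held to be active, so their values are a description and carry no test. The study profiled H3K9me3 by chromatin immunoprecipitation and sequencing in BJ, a human skin fibroblast cell line. Its cells carried CRISPR interference, a system that represses the gene to which a guide RNA directs it. The cells had a control guide (labelled sgCtrl) or 1 of 2 guides that target the long non-coding RNA gene PURPL (sgRNA-PURPL#1, here guide 1, and sgRNA-PURPL#2, here guide 2). The 6 samples are 1 H3K9me3 and 1 input library from each of these 3 lines, all fixed with 1% formaldehyde for 10 min. No other treatment or stimulation is given by the labels. With 1 library per cell line no difference has a replicate check, and a cell line cannot be told apart from its guide.

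Immediate-early genes are switched on within minutes of a stimulus such as serum, without new protein synthesis. Growth factor receptors signal through RAS and the MAP kinases to serum response factor and its partners, which bind CArG boxes, and to CREB, which binds cyclic AMP response elements (CRE). The first products, among them the AP-1 proteins and EGR1, then regulate later genes, while phosphatases such as DUSP1 shut the signal off. H3K9me3, trimethylation of lysine 9 of histone H3, is known for satellite repeats, retrotransposons and zinc finger gene clusters, where it accompanies silencing.

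On these chromosomes the lists held 22627 (control), 14087 (guide 1) and 11721 (guide 2) peaks. Each list was given to its cell line by the name under which it was deposited. The peak names inside the lists call the guides NC_sg1, PURPL_sg4 and PURPL_sg5, so which PURPL list belongs to guide 1 and which to guide 2 rests on those deposited names alone. The number of reads behind each list is unknown. The median peak score, the value the authors deposited for each peak, was 21, 22 and 22. RNA was not analysed here, so whether the 10 genes were transcribed in these cells was not measured, and peak lists cannot check the identity of the cells.

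All 10 genes had a peak with guide 1, 9 with guide 2 and 6 with the control guide. Of all coding genes 7.34% had a peak in the same window with guide 1, 4.25% with guide 2 and 15.1% with the control guide. The 10 genes are short, with a median length of 3614 bp against 24190 bp for all coding genes. Among the 8580 coding genes no longer than THBS1, the longest of the 10, the shares were 2.72%, 1.91% and 4.41%. FOS, FOSB, EGR1, DUSP1 and CCN1 had a peak in every list, as did 2.49% of coding genes. JUN, KLF6, MCL1 and ID1 had none in the control list and 1 or more with both guides, a pattern that 23 coding genes (0.115%) showed. THBS1 was the 1 gene without a guide 2 peak.

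The windows together held 9.52 kb under control peaks, 17.1 kb under guide 1 peaks and 9.26 kb under guide 2 peaks, out of 158 kb. Guide 1 thus had 179% of the control length and guide 2 had 97.2%. Over all coding gene windows these shares were 37.3% and 15.4%, and over those of genes no longer than THBS1 55.9% and 32.1%. Coverage was longer with guide 1 than with the control guide at 8 of the 10 genes (2.23% of all coding genes) and with guide 2 at 6 (1.2%). It was longer with both guides at 5, FOSB, JUN, KLF6, MCL1 and ID1, against 0.23% of coding genes. Of the 6 genes with a control peak, 4 were longer with guide 1 and 2 with guide 2, against 5.95% and 2.46% of coding genes with a control peak. Both comparisons share the control library.

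The counts were lower without low-scoring peaks. With peaks limited to scores from the pooled median upward, the marked genes numbered 5, 8 and 3 in the control, guide 1 and guide 2 lists (5.65%, 2.57% and 1.44% of coding genes). The guide 2 peaks of JUN, KLF6, MCL1 and ID1 scored 13, 18, 12 and 12, below that median of 22. At this limit those genes were thus no longer marked with both guides. Of the genes with longer coverage in both guides, FOSB alone kept a guide 2 peak, with a score of 33. In the upper score quartile of each list, 3, 2 and 1 genes were left (1.47%, 0.661% and 0.265% of coding genes), and guide 1 no longer had the longer coverage, with 3.68 kb against 3.84 kb.

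**Figure D1:**
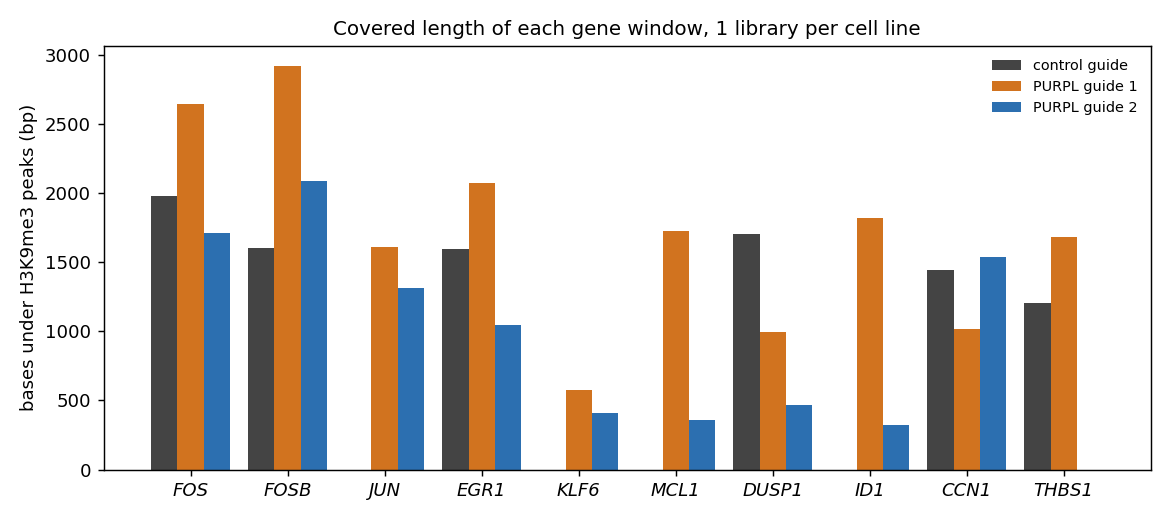
Bars show the bases under H3K9me3 peaks (bp) in the window of each gene, for the control guide, PURPL guide 1 and PURPL guide 2, with 1 library per bar and no error. JUN, KLF6, MCL1 and ID1 have no control bar, DUSP1 is the 1 gene whose control bar, 1702 bp, stands above both guide bars, and the highest bar is FOSB with guide 1, at 2917 bp.

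FOS encodes the founding member of the FOS family, which pairs with JUN proteins to form AP-1. FOS (gene ID 2353, chr14:75278828-75282230, plus strand) had 2 peaks in each list, at like places. The first lay inside the body, at chr14:75279497-75280409 in the control, chr14:75279436-75280854 with guide 1 and chr14:75279852-75280936 with guide 2. Its widths were 913, 1419 and 1085 bp and its scores 21, 19 and 19. The second lay past the gene end, by 226, 459 and 760 bp in the control, guide 1 and guide 2 lists. It was 1065, 1224 and 628 bp wide, with scores of 31, 30 and 25, above 73.6%, 70.1% and 57.3% of the peaks in each list. The body between the gene start and the first peak, at least 608 bp, held no peak in any list.

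The promoter of FOS is shown because it lay free of peaks in all 3 cell lines while the gene behind it was marked. The promoters of the other listed genes with a known strand were also free of peaks. These are the 250 bases before the gene start, 5′ to 3′, from RefSeq on GRCh38.p14, and capitals mark a TATA box (TATAAA), which begins 33 bases before the start.
FOS chr14:75278578-75278827 (plus strand): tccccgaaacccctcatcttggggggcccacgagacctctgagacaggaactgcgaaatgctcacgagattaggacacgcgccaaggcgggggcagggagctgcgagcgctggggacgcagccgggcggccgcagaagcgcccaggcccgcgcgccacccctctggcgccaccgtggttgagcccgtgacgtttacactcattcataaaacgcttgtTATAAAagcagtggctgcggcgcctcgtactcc

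FOSB, a second FOS family member (chr19:45467996-45475179, plus strand), had 1 peak per list, at its end. The control peak crossed the gene end at chr19:45473810-45475409, and was 1600 bp wide with a score of 24. The guide 1 peak, chr19:45473456-45476372, covered all of it and was 2917 bp wide, the widest of the 33, with a score of 26. The guide 2 peak, chr19:45475262-45477348, began 83 bp past the gene end and shared 148 bp with the control peak. It was 2087 bp wide with a score of 33, the highest of the guide 2 peaks at these genes. FOSB was the 1 gene of the 10 with a control peak at which both guides had longer coverage.

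JUN, the AP-1 partner of the FOS proteins (chr1:58780791-58784047, minus strand), had no control peak. A guide 1 peak of 1607 bp, chr1:58779454-58781060, and a guide 2 peak of 1315 bp, chr1:58779612-58780926, both crossed the gene end, and the second lay wholly within the first. Their scores differed in rank, as 32 with guide 1 was above 73.6% of its list and 13 with guide 2 above 2.76%. The nearest control peak to JUN outside the window was 42645 bp from the body.

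**Figure D2:**
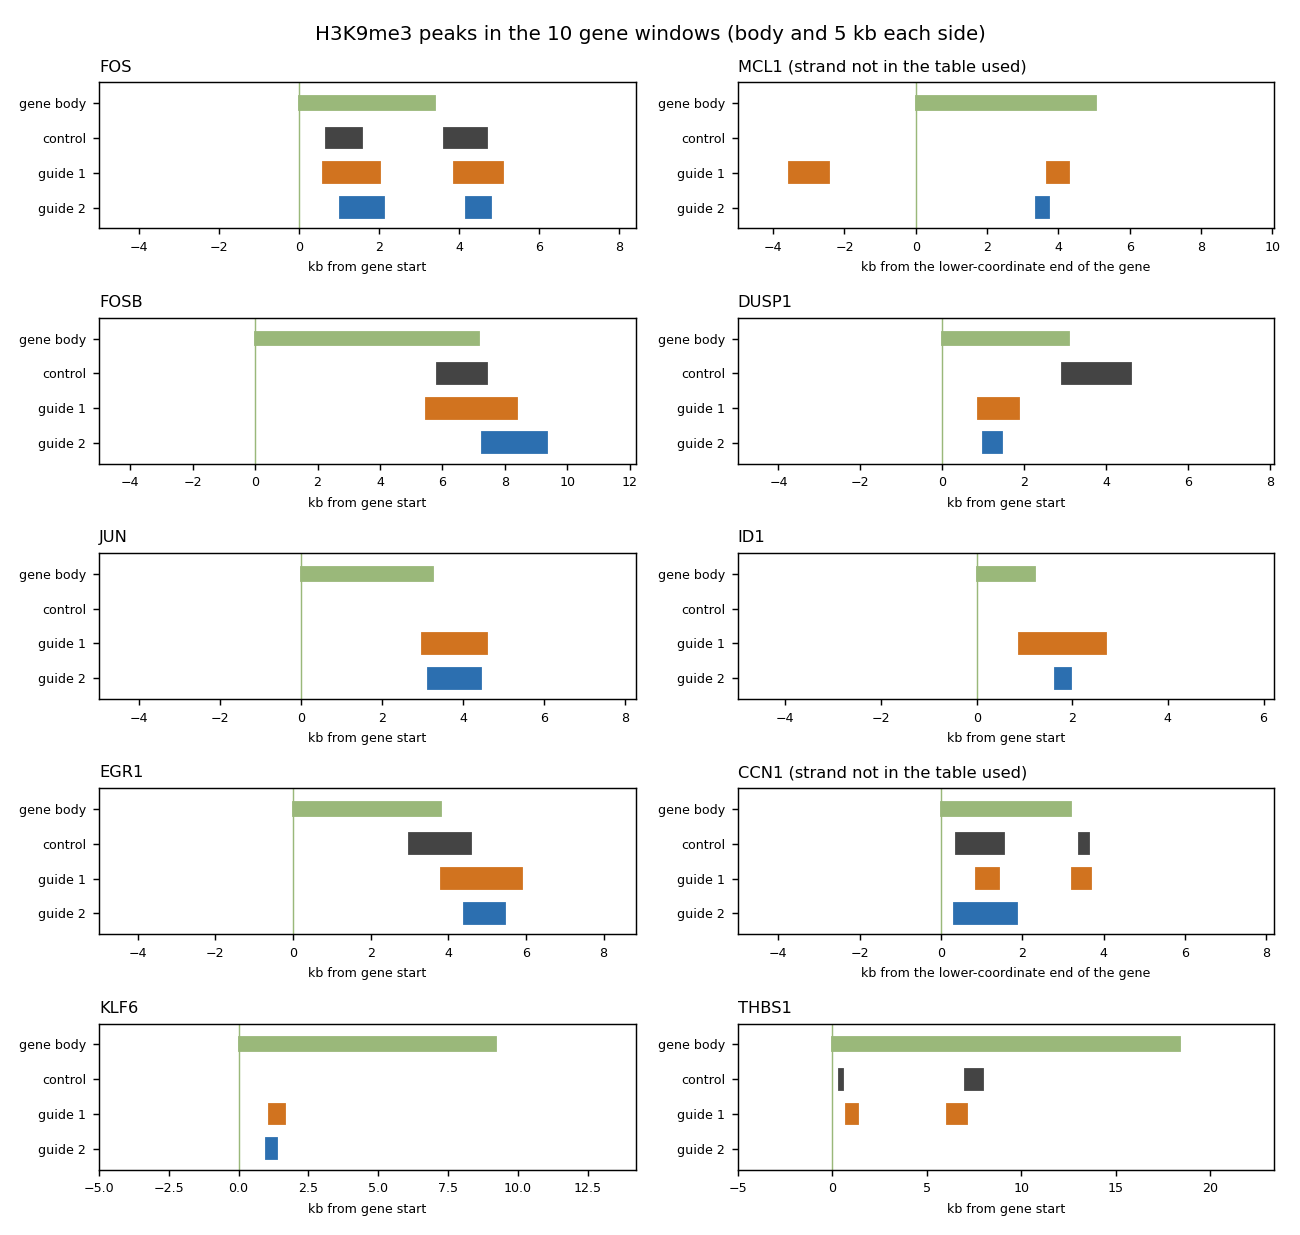
Each panel shows 1 gene, with its body in green and the peaks of the control guide (grey), PURPL guide 1 (orange) and PURPL guide 2 (blue) below it, on an axis of kb from the gene start in the direction of transcription (for MCL1 and CCN1, from the lower coordinate). In the 8 panels with a strand, peaks lie inside the body or around the gene end, and none lies before the start. A guide 1 peak of MCL1 lies 2438 bp outside the body.

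EGR1, a zinc finger transcription factor and a classic target of serum response factor (chr5:138465479-138469303, plus strand), had 1 peak per list. The control peak crossed the gene end at chr5:138468459-138470055, with its centre 46 bp before that end. It was 1597 bp wide with a score of 31. With guide 1 the peak, chr5:138469297-138471367, had 7 bp in the body and was 2071 bp wide. Its score of 50, above 87.3% of the list, was the highest of the 33 peaks. With guide 2 the peak, chr5:138469884-138470932, began 581 bp past the end and was 1049 bp wide with a score of 30. The peak centres lay 1029 and 1105 bp past the gene end with guides 1 and 2, so the control peak shared 759 and 172 bp with them.

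The promoter of EGR1 is shown because it was the 1 promoter among these genes with matches to the CArG pattern. Capitals mark the 2 matches, which begin 105 and 83 bases before the start. No list had a peak base here, and the nearest peak edge lay 2980 bp past the start.
EGR1 chr5:138465229-138465478 (plus strand): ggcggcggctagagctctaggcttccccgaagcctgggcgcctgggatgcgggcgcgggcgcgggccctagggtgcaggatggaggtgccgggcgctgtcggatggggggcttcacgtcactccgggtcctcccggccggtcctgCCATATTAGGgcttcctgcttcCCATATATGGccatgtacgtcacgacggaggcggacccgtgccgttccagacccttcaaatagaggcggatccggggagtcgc

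KLF6, a Krüppel-like transcription factor (chr10:3775996-3785209, minus strand), was marked with both guides alone, by narrow peaks in the part of the body near the start. The guide 1 peak, chr10:3783540-3784116, was 577 bp wide with a score of 13. The guide 2 peak, chr10:3783819-3784225, was 407 bp wide with a score of 18. They began 1093 and 984 bp past the start and shared 298 bp. KLF6 had the least coverage of the 10 genes with guide 1.

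ID1, which encodes an inhibitor that binds basic helix-loop-helix factors and keeps them off DNA (chr20:31605289-31606510, plus strand), also had no control peak. With guide 1 a peak of 1820 bp, chr20:31606173-31607992, crossed the gene end with a score of 30. With guide 2 a peak of 326 bp, chr20:31606931-31607256, lay 421 bp past the end, within the guide 1 peak, with a score of 12. The centres of both lay close together, 572 and 583 bp past the gene end. The microRNA gene MIR3193 lies under both peaks, so they cannot be given to ID1 alone. The related gene ID3, another such inhibitor from a list of BMP and TGF-beta targets, had 1083 and 702 bp with guides 1 and 2 and no control peak. Its peaks were centred 902 and 1188 bp past its end.

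DUSP1, a nuclear phosphatase that inactivates MAP kinases (chr5:172768096-172771195, minus strand), differed in the place of its peaks. In the control a peak of 1702 bp, chr5:172766584-172768285, crossed the gene end with a score of 19. With guide 1 a peak of 998 bp, chr5:172769326-172770323, lay inside the body with a score of 24. With guide 2 a peak of 466 bp, chr5:172769736-172770201, lay within the guide 1 peak with a score of 16. The control peak overlapped neither of them. DUSP1 was the 1 gene of the 10 with shorter coverage in both guides, 0.586 and 0.274 times the control.

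The promoter of DUSP1 is shown because it holds, in capitals, the 1 match to the full CRE (TGACGTCA) found among the promoters of these genes, which begins 125 bases before the start, and a TATA box 30 bases before it. The nearest peak edge, with guide 1, lay 872 bp past the start.
DUSP1 chr5:172771196-172771445 (minus strand): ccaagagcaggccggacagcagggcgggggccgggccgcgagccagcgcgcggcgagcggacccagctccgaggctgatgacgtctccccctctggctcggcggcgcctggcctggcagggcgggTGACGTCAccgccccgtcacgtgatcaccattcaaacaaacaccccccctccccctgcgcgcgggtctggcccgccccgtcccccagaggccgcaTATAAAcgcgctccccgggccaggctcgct

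MCL1 encodes a short-lived protein of the BCL2 family that protects cells from apoptosis (chr1:150574558-150579610). It had 0 control peaks, 2 with guide 1 and 1 with guide 2. A guide 1 peak of 600 bp, chr1:150578245-150578844, and a guide 2 peak of 358 bp, chr1:150577927-150578284, lay in the body, shared 40 bp and had a score of 12 each, above 1.8% and 1.29% of their lists. The second guide 1 peak, chr1:150570997-150572120, lay 2438 bp outside the body and was 1124 bp wide with a score of 28. It overlapped the long non-coding RNA gene ADAMTSL4-AS1. MCL1 and CCN1 have no entry in the promoter table used, so their peaks are given by coordinates without a direction.

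CCN1, a matricellular protein that binds integrins (chr1:85580761-85583950), had 2 peaks in each of the control and guide 1 lists and 1 in the guide 2 list. Inside the body the control peak, chr1:85581138-85582319, was 1182 bp wide with a score of 34, the highest control score at these genes. The guide 1 peak there, chr1:85581628-85582192, was 565 bp wide with a score of 11. The guide 2 peak, chr1:85581082-85582620, was 1539 bp wide with a score of 16, so width and score were ordered differently. A second, narrow peak next to the body at its higher coordinate measured 261 bp in the control list and 455 bp in the guide 1 list, with scores of 24 and 23. Guide 2 had none there.

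THBS1, a matricellular glycoprotein that activates latent TGF-beta (chr15:39581079-39599466, plus strand), had 2 peaks in the control and 2 with guide 1, all inside the body. The peaks near the start, chr15:39581425-39581673 in the control and chr15:39581825-39582456 with guide 1, were 249 and 632 bp wide and did not overlap. Those further in, chr15:39588097-39589051 and chr15:39587158-39588206, were 955 and 1049 bp wide and shared 110 bp. Their scores were 28 and 12 in the control and 20 and 20 with guide 1. The guide 1 peak further in also overlapped the gene THBS1-IT1. Guide 2 had no peak in the window, and its nearest one lay 10305 bp past the gene end.

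None of the 25 peaks at the 8 genes with a known strand overlapped the 300 bases around the gene start (250 before and 50 after). All 25 began past the start, the nearest by 346 bp, in the control list at THBS1. Among the other coding genes no longer than THBS1 with a known strand, 3.97% of the peaks in their windows overlapped those 300 bases, and 22.5%, 14.0% and 15.2% lay upstream in the control, guide 1 and guide 2 lists. Peaks at the 8 genes crossed the gene end or lay past it in 57.1% (control), 50% (guide 1) and 62.5% (guide 2) of cases. The shares at the other short genes were 37.9%, 31.6% and 28.5%, and at genes whose symbol starts with ZNF 22.4%, 15.8% and 13.7%. In these comparison groups a peak that touched several gene windows was counted once for each. Counted over the 3 lists, 14 of the 25 peak centres (56.0%) lay within 1500 bp of the gene end, against 19.0% at the other short genes and 10.4% at ZNF genes. Among 73 further early-response genes, not limited in length, 5 of the 8 peak centres at genes with a strand (62.5%) lay as close to the end, a share no lower than at the 10. This distance was chosen after the values were seen. ZNF genes are longer, with a median length of 23748 bp against 3614 bp for the 10. The part of a window near or past the end is smaller at ZNF genes, so their shares are not like for like. The other short genes were limited by the length of THBS1, 18388 bp, and were not matched in length to the 10. Their shares may therefore not be like for like either. The 25 peaks come from 8 genes, and peaks of different lists at 1 gene overlap, so they are not separate observations.

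**Figure D3:**
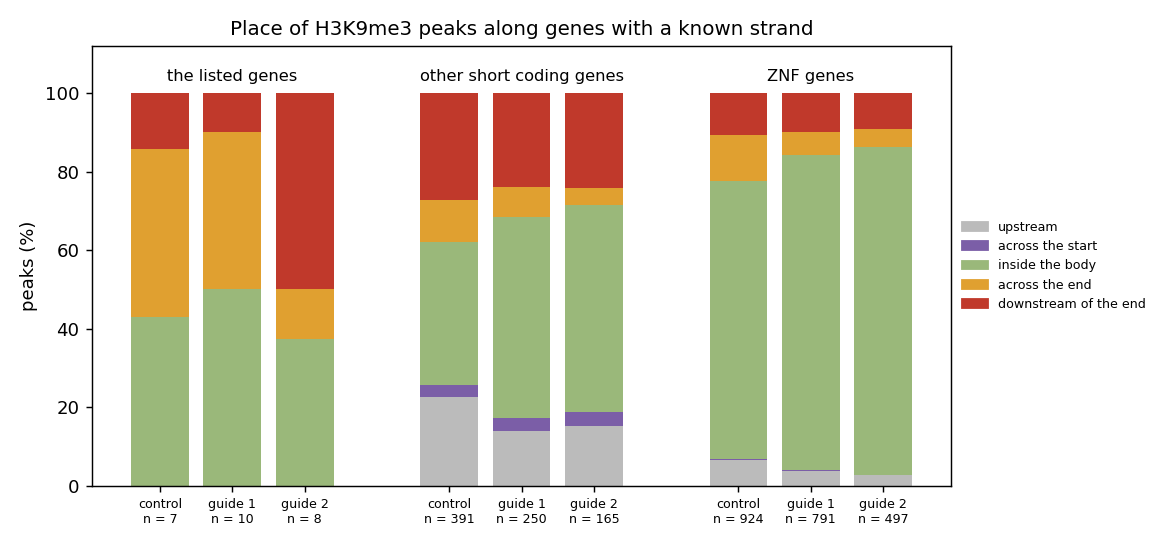
Stacked bars give the percentage of peaks that lie upstream of the gene, across its start, inside its body, across its end or downstream of it. They are given for each list at the 8 listed genes with a strand, the other coding genes no longer than THBS1, and ZNF genes. The number n counts pairs of a peak and a gene window. The listed genes have no upstream or start peaks, and 57.1%, 50% and 62.5% of their peaks lie across or past the end.

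Peaks at the 10 genes often overlapped between lists. Guide 1 had an overlapping peak for 7 of the 9 control peaks (77.8%) and guide 2 for 5 of them (55.6%), where the shares of all control peaks were 42.8% and 36.2%. Of the 14 guide 1 peaks, 7 overlapped a control peak (50%), below the 79.2% of the whole list. Of the 10 guide 2 peaks, 5 did (50%), below 82.9%. The guides shared more with each other, as all 10 guide 2 peaks overlapped a guide 1 peak (68.6% of the whole list) and 10 of 14 guide 1 peaks overlapped a guide 2 peak (71.4%, against 55%). Several of these peaks share a gene, so no interval is given. The genes were chosen by their peaks, and JUN, KLF6, MCL1 and ID1 had guide peaks and no control peak. The overlap shares therefore partly restate that choice. Counting overlaps of 50% or more of the control peak, 4 control peaks were shared with guide 1 and 2 with guide 2.

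The place of the guide peaks relative to the control peaks differed between genes. Where peaks overlapped at genes with a strand, the guide 1 centre lay downstream of the control centre in 4 of 5 pairs, by a median of 305 bp over the pairs and by up to 1075 bp (EGR1), and at THBS1 its distance was -892 bp, or upstream. With guide 2 it lay downstream in 4 of 4 pairs, by 315 to 1696 bp (FOS and FOSB). These pairs come from FOS, FOSB, EGR1 and THBS1, and both guides were set against the same control peaks. DUSP1, whose guide peaks did not overlap its control peak, went the other way, as the control centre lay 3760 bp past the start and the guide centres 1370 and 1226 bp past it, a larger distance than in any of the overlapping pairs. From guide 1 to guide 2 the centre lay further downstream in 5 of 8 pairs and further upstream in 3. The median signed shift was 7 bp, from -194 to 1391 bp, and shifts of opposite sign cancel in that median.

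The peaks at these genes were not short for their lists. Widths ran from 249 to 2917 bp, with medians of 1065, 1086.5 and 838.5 bp in the control, guide 1 and guide 2 lists, and medians over the whole lists were 858, 810 and 785 bp. Peaks in the windows of ZNF genes with a strand, counted once per window, had median widths of 1594.5, 1127 and 825 bp. The scores ran from 11 to 50, in a range where the highest scores of the lists were 6585, 4904 and 2678. The median peak at the 10 genes had a score above 57.5%, 52.1% and 19.9% of the peaks in the control, guide 1 and guide 2 lists. Among peaks in coding gene windows alone these positions were 81.6%, 78.2% and 34.3%.

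**Figure D4:**
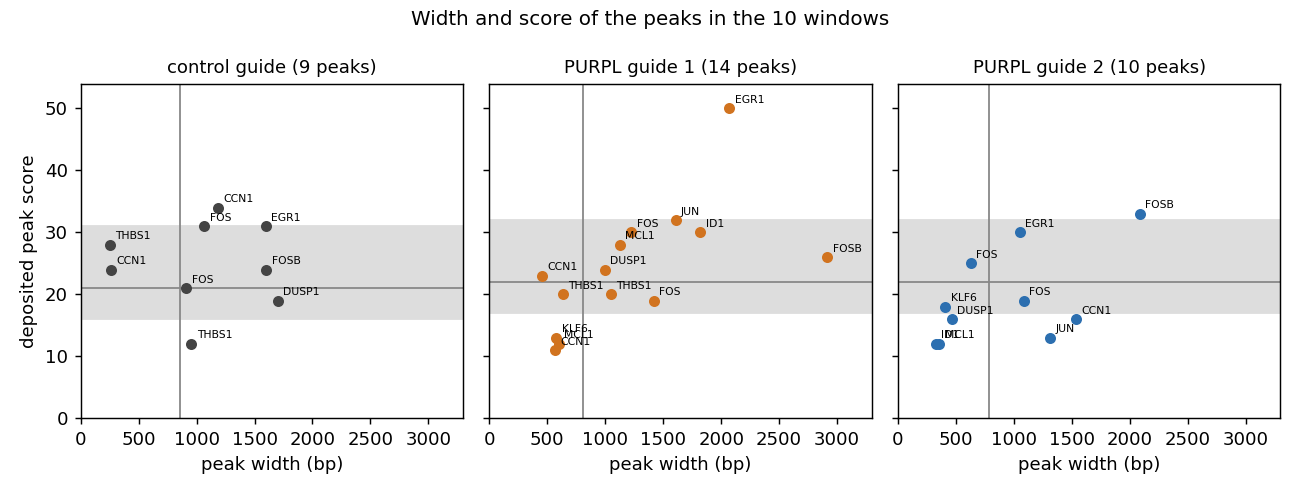
Points are the 33 peaks at the 10 genes, by width (bp) and deposited score, in a panel per list, with vertical and horizontal lines at the median width and score of the whole list and a grey band over its middle quartiles of score. Most points lie within or below the band, and the EGR1 peak of guide 1 stands highest with a score of 50.

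Other early-response genes were marked in smaller shares than the 10. The 10 were chosen by their peaks in these lists, so that order follows from the choice and is not a result. The other genes were listed by their known roles, though with earlier results of these data known. Of 23 further immediate-early transcription factor genes, 1 was marked in the control and 0 with either guide, beside 15.1%, 7.34% and 4.25% of coding genes. The marked gene was NFIL3, a basic leucine zipper repressor, with 1622 bp. JUNB, JUND, FOSL1, FOSL2, ATF3, EGR2 and NR4A1 thus had none. Of 29 feedback regulators, 3, 1 and 1 were marked in the control, guide 1 and guide 2 lists, and of 21 secreted and matricellular genes 3, 2 and 0. Together these 73 genes had a median coverage of 0 bp in each list, as had all coding genes, and 7, 3 and 1 of them were marked (9.59%, 4.11% and 1.37%), below the shares of all coding genes. They are shorter than coding genes at large, with a median length of 8046 bp. Of the 55 no longer than THBS1, 4, 2 and 1 were marked (7.27%, 3.64% and 1.82%), where the shares of all coding genes of that length were 4.41%, 2.72% and 1.91%, so the order turned in the control and guide 1 lists.

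The 4 shortest of the marked early-response genes had their peaks past the gene end. ZFP36, which destabilises AU-rich mRNAs, had a control peak of 871 bp centred 1048 bp past its end and a guide 2 peak of 780 bp centred 2310 bp past it. PPP1R15A, a regulator of eIF2 alpha dephosphorylation, had a control peak of 394 bp centred 807 bp past its end. IER2, an immediate-early nuclear protein, had a guide 1 peak of 693 bp centred 646 bp past its end. CCN2, the closest relative of CCN1 in this response, had a control peak of 1211 bp centred 957 bp past its end and none with either guide. Among the remaining marked genes were SPRED1 (248 bp) and CCN4 (227 bp) in the control alone and EREG with guide 1 alone (738 bp).

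The remaining lists of the pathway had no more than 3 marked genes each with either guide. Of all coding genes 15.1%, 7.34% and 4.25% were marked in the control, guide 1 and guide 2 lists. Of 28 receptor, RAS, MAP kinase and transcription factor genes, many of them long, 7, 3 and 1 were marked (25%, 10.7% and 3.57%). PDGFRA, a receptor of platelet-derived growth factor, had 1365, 89 and 0 bp, the kinase gene BRAF 709, 0 and 0 bp, and MAP2K1 367, 0 and 0 bp. MRTFA, a coactivator of serum response factor, had 0, 245 and 272 bp. Its guide 1 peak, chr22:40620900-40621144, and guide 2 peak, chr22:40483691-40483962, lay at different places in the gene and did not overlap. The coactivator YAP1 had 627 bp with guide 1 alone. Of 20 cytoskeletal targets of serum response factor, 2, 1 and 1 were marked (10%, 5% and 5%). Vinculin (VCL) had 347 bp in the control, caldesmon (CALD1) 276 bp in the control and 443 bp with guide 1, and FHL2 558 bp with guide 2. Of 8 BMP and TGF-beta targets ID3 was the marked one. None of 12 BCL2 family genes had a peak in any list. Of 12 other KLF genes, with a median length of 53301.5 bp, 4, 1 and 0 were marked (33.3% in the control and 8.33% with guide 1). Among them were KLF14 with 2602, 900 and 0 bp, KLF12 with 1921, 0 and 0 bp and KLF15 with 1723, 0 and 0 bp.

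No more than 3 fibroblast genes and 2 housekeeping genes were marked in any list. Of 21 fibroblast genes 3, 0 and 2 were marked (14.3%, 0% and 9.52%), with the proteoglycan gene DCN at 3288 bp, COL1A2 at 827 bp and vimentin (VIM) at 569 bp in the control alone, and COL5A1 (1002 bp) and TIMP3 (219 bp) with guide 2 alone. Of 20 housekeeping genes 2, 2 and 0 were marked (10% in each of the control and guide 1 lists), among them the ferritin gene FTH1 (1501, 262 and 0 bp). Of 18 markers of other skin and blood cells, with a median length of 30943 bp, 4, 0 and 0 were marked. The control share was 22.2%, beside 15.1% of all coding genes. Among the marked were MITF with 1384 bp, CD8A with 787 bp and TP63 with 571 bp. ZNF genes, where the mark is known, had 323, 279 and 220 of 518 members marked, with the share falling from 62.4% in the control to 53.9% and 42.5%. The 10 genes had their smallest share in the control. ZNF559-ZNF177, ZNF91 and ZNF540 had the longest control coverage, with 44299, 42661 and 42399 bp. ZNF274 and ZNF140 had the longest with guide 1 (30833 and 28857 bp), and ZNF721 and ZNF544 with guide 2 (15264 and 15083 bp).

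**Figure D5:**
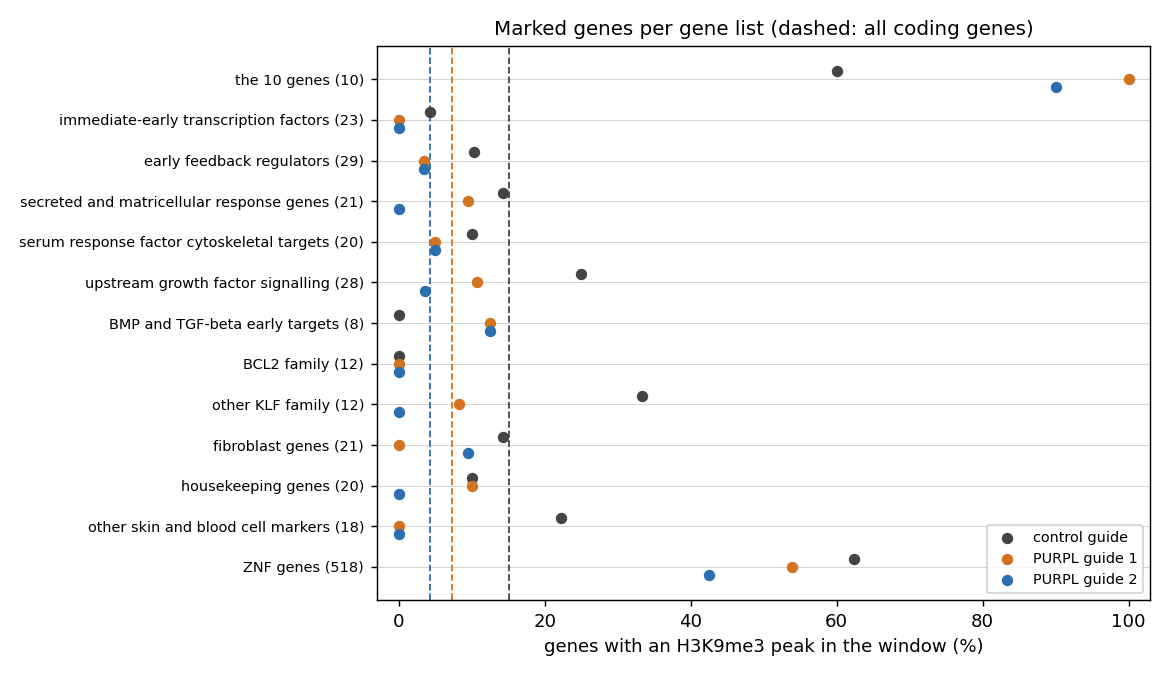
Points give the percentage of genes with an H3K9me3 peak in the window for each gene list (number of genes in parentheses) and each cell line, and dashed lines give the same for all coding genes (15.1% control, 7.34% guide 1, 4.25% guide 2). The 10 genes stand at 60.0%, 100% and 90.0%, and ZNF genes at 62.4%, 53.9% and 42.5%.

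The genes whose coverage came closest to the median of the 10 (1323.5, 1702.5 and 757.5 bp in the control, guide 1 and guide 2 lists) were ranked by Euclidean distance over the 3 lists among genes no longer than THBS1. They were ZNF394 at 652 bp, FBXO39 at 742 bp, LOC124905450 at 768 bp, ZNF671 at 792 bp and the nuclear receptor gene NR2E3 at 829 bp. ZNF394 had 1729, 1270 and 1028 bp, and NR2E3 1286, 1369 and 0 bp. Among coding genes outside the 10 and no longer than THBS1, the highest-scoring peaks no wider than those of the 10 genes were ranked per list. They were at NKX1-1, FRG2 and FRG2C in the control, DUX4, NKX1-1 and OR2T1 with guide 1, and DUX4, ZNF501 and FRG2C with guide 2. DUX4, FRG2 and FRG2C have near-identical copies, so the place of their peaks is uncertain. The control peak at NKX1-1, which lay 4739 bp past the gene end, had a score of 113, against 34 for the highest control peak at the 10 genes.

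With the guides the surroundings of the 10 genes held few other peaks. Of the marked genes, 1 of 6 in the control, 7 of 10 with guide 1 and 9 of 9 with guide 2 had no further peak within 200 kb of the body, a distance chosen after the values were seen. Among the other marked coding genes no longer than THBS1 the shares were 18.0%, 27.4% and 33.5%. The peak just inside the limit of the windows was the guide 1 peak 2438 bp from MCL1. Just outside were a control peak 10260 bp and the guide 2 peak 10305 bp past the end of THBS1, and then a control and a guide 1 peak 20515 and 20789 bp from CCN1. With gene bodies alone 6, 10 and 6 genes were marked, beside 13.1%, 6.55% and 3.73% of coding genes. The guide 2 count was lower, as the guide 2 peaks of FOSB, EGR1 and ID1 lay past the gene end.

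The 250 bases before the start were matched in RefSeq for 8 of the 10 genes. Their GC content ran from 62.0% to 74.4% with a median of 67.2%, and the median over 15811 coding promoters was 62.4%. They held a median of 24.5 CpG dinucleotides, against 17. Searched on both strands, a TATA box (TATAAA) was found at DUSP1, FOS, FOSB and ID1, in 9.25% of all promoters. A CArG box was found at EGR1 (1.14%) and a full CRE (TGACGTCA) at DUSP1 (2.32%). Its shorter form TGACG, which lies within the full CRE, was found at DUSP1, EGR1, FOS, FOSB and JUN (25.6%). A GC box (GGGCGG) was found at 7 of 8 (56.0%) and the AP-1 site TGACTCA at 0 (3.18%). A match of letters is a description and not a measured binding site.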

How the data were processed

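The deposited data are 3 lists of H3K9me3 peaks, 1 per cell line, each named as H3K9me3 against the input of the same line, so replicates were not pooled. Each peak has a position and a score that the authors deposited, a whole number of at least 10 on a scale that no source used here names. The submitters' processing notes name the builds GRCh38.p13 and hg38, and the tools MACS2 2.2.9.1, Bowtie2 2.4.2, deepTools 3.5.1 and GATK. The sources used here do not give read numbers or the settings of the peak caller. Scores were ranked within a list, and a limit at the pooled median was tried.

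Peaks outside chromosomes 1 to 22 and X (4.34%, 4.27% and 3.85% of the lists) were left out. Genes came from RefSeq for GRCh38.p14, whose chromosome coordinates are those of GRCh38.p13, and strands from its promoter table, which held 15811 of the 19970 coding genes. Exon positions were not used here. The scripts ran in Python 3.11.15 with pandas 2.3.3, numpy 2.4.6, matplotlib 3.10.9 and scipy 1.17.1, and the overlap functions were tested on simulated data. With 1 library per cell line there was no test.

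The genes and lists were chosen with earlier results of these data known. Named genes were the 10, up to 3 genes per other list with the longest control coverage and up to 2 with the longest coverage per guide. The 5 genes closest to the median coverage of the 10 and the 3 genes per list with the highest-scoring peak no wider than theirs were added. Both sets were taken from coding genes outside the 10 and no longer than THBS1. Other names were chosen after their values were seen, and the values of 2 genes of the lists are not reported here. Alternatives changed the margin, the peaks kept, the overlap rule and the background.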

Additional observations from a re-analysis of the deposited data

Results flagged for a closer look

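At 4 genes coverage moved in opposite directions from the control with the guides, a difference that was not tested. At FOS it was 665 bp longer with guide 1 and changed by -265 bp with guide 2. At EGR1 the changes were 474 and -548 bp, and at THBS1 477 and -1204 bp. At CCN1 the order was the other way, with -423 bp for guide 1 and 96 bp for guide 2. Each value rests on 1 library per cell line.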

How the results depend on the processing

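No paired analysis was possible because each cell line has 1 H3K9me3 library. For the same reason no replicate could be left out. Covered length, in the order control, guide 1 and guide 2, was 5.7, 8.18 and 3.99 kb with gene bodies alone and 8.72, 13.2 and 6.9 kb with a margin of 1000 bp. With a margin of 20000 bp it was 10.7, 17.1 and 10.1 kb, and with peaks of at least 300 bp 9.01 kb in the control and unchanged with the guides. With scores from the pooled median upward it was 5.95, 12.2 and 3.76 kb, and in the upper score quartile 3.84, 3.68 and 2.09 kb. Guide 1 was the longest under each of these settings but the last. Guide 2 was shorter than the control in 5 of the 6 and longer with peaks of at least 300 bp (9.26 against 9.01 kb).

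Marked genes stayed within 1.5 times the main count under 4 settings. The limit at the pooled median score left 3 with guide 2, and the upper score quartile left 3, 2 and 1. Control peaks shared with the guides were 4 and 2, both with 50% of the control peak overlapped and with reciprocal overlap of 50%, and 8 and 5 with a peak within 1000 bp. The score positions moved from 57.5%, 52.1% and 19.9% to 81.6%, 78.2% and 34.3% when peaks in coding gene windows were the background. The cause of these changes was not tested, apart from the fewer peaks that a stricter limit leaves. The unknown depth limits every count, since a missing peak may lie below what a library could show.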

Other observations

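Of all coding genes, 23 (0.115%) had a peak with both guides and none in the control. Among the 8580 no longer than THBS1, 9 did. Beside JUN, KLF6, MCL1 and ID1, which were chosen by their peaks, the 9 held ID3, SDE2, H2BN1, LKAAEAR1 and MARCKS. All of these but ID3 were named after their values were seen. MARCKS, an actin-binding substrate of protein kinase C, had 315 and 785 bp with guides 1 and 2. H2BN1, a histone H2B gene, had 1254 and 856 bp. The coverage of LKAAEAR1, 495 and 291 bp, equals that of its neighbour OPRL1. Among longer genes BNIP3L, a mitophagy receptor, had 476 and 1275 bp, and the aryl hydrocarbon receptor repressor gene AHRR 219 and 1173 bp.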
